A study of Mus musculus with 4 samples.

Results

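The genes described here encode proteins that the liver makes for the blood plasma, together with a few liver enzymes, measured in mouse thymic epithelial cells (TECs). They are 44 genes taken from a list of names: apolipoproteins, carrier and binding proteins, coagulation and fibrinolysis proteins, protease inhibitors, pentraxins and hepcidin, and 2 liver enzymes. The rule that picks them uses gene names and no threshold on a measured value. Of the 44, 43 had at least 1 probe on the array, 53 probes in all, out of 41174 probes and 19886 genes with a current symbol. Serpina1a, an alpha-1-antitrypsin gene, had no probe.

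The study compared Meis1-CKO mice, K14-CreERT2 Meis1fl/fl, with control mice, K14-CreERT2 Meis1fl/+, which the labels also call WT. Meis1 is a homeobox transcription factor. Mice of both genotypes were 3 weeks old. Tamoxifen was injected on 3 days at 1 mg per injection, and 4 days later the cells were sorted as CD45- EpCAM+. There were 2 pools of 6 mice per genotype, from 2 independent experiments, and each pool was hybridised to 1 single-colour array. Controls therefore also carried the recombinase, the drug and 1 floxed allele. The keratin 14 promoter drives the recombinase, so deletion is tied to cells in which that promoter is active. A pool hides differences between its mice, and in bulk RNA fewer cells of a type and less RNA per cell cannot be told apart.

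Proteins of peripheral organs are also made at low levels in the thymus, chiefly by medullary TECs, where they let developing T cells that recognise self be removed or diverted. The transcriptional regulator Aire promotes the expression of many such tissue-restricted antigens, and Fezf2 that of others. A single medullary TEC expresses only a small and varying subset of them. In the liver itself these genes depend on factors such as HNF4, FOXA and C/EBP.

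Promoter windows of 6 of these genes are printed because albumin and alpha-fetoprotein, and the 3 fibrinogen chains, are neighbouring genes, and because F2 had the lowest unadjusted p of the list. Each line holds the 150 bases before a start site, from RefSeq on GRCm38.p6, read 5′ to 3′ on the gene's strand. Capitals mark matches to TTGCNNAA (a C/EBP core) on either strand, and to TATAAA, a core promoter element, on the gene's strand in the last 60 bases. The choice of windows was made after the matches had been seen.
Alb, chr5:90460720-90460869, plus strand: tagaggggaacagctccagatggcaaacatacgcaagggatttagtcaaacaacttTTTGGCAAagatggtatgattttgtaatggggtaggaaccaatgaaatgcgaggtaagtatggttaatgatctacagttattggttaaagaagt
Afp, chr5:90490564-90490713, plus strand: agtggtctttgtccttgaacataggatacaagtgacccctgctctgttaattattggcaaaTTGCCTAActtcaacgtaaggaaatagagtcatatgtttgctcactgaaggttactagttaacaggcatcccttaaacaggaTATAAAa
Fga, chr3:83026003-83026152, plus strand: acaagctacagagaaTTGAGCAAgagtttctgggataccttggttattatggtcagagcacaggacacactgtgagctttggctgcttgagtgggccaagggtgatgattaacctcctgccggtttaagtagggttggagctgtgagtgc
Fgb, chr3:83049864-83050013, minus strand: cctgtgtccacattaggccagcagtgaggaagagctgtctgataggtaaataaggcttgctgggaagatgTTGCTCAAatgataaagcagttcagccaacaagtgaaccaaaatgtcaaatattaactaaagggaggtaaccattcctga
Fgg, chr3:83007574-83007723, plus strand: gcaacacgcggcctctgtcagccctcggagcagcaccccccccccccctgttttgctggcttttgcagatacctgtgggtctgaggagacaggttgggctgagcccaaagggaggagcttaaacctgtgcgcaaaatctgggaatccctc
F2, chr2:91636458-91636607, minus strand: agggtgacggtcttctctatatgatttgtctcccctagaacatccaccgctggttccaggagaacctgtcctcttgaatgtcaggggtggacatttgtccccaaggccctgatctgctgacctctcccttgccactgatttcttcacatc
The windows of Fgg and F2 held neither of these motifs. Over the 250 bases before the start, 40 windows of 35 of the 44 genes matched and were set beside 32851 windows of all genes. TTGCNNAA was in 27.5% of the liver protein windows and 9.56% of all windows. The shares were 42.5% and 17.8% for TGTTTNC (a FOXA core), and 27.5% and 12.6% for CAAAGT (part of an HNF4 site), each on either strand. TATAAA in the last 60 bases was in 15.0% of the liver protein windows and 2.87% of all windows. Matches of different motifs may overlap, and a match is only a run of letters. The median number of CG dinucleotides per window was 3 in liver protein genes and 6 in all genes, at a median GC content of 51.6% and 52.4%.

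The Apob transcript was covered by 5 probes, which are printed because they read the same gene at positions far apart. Each is a 60-base probe from the array file, placed on mm9 on the plus strand in order from the 5′ to the 3′ end of the gene. The first spans more than its own length on the genome.
Apob probe 1, chr12:8005482-8007691: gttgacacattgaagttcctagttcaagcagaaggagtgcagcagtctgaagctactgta
Apob probe 2, chr12:8014710-8014769: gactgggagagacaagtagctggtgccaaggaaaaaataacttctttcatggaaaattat
Apob probe 3, chr12:8018741-8018800: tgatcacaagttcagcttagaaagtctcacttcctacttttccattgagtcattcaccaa
Apob probe 4, chr12:8023134-8023193: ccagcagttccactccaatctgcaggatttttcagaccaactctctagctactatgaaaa
Apob probe 5, chr12:8023194-8023253: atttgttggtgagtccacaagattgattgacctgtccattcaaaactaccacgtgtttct
Their values are given with the apolipoproteins.

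Levels are log2 processed signals minus the 75th percentile of the same array, so 0 is the brightness that 1 in 4 probes exceeds. A probe's level cannot be set against another probe's. On the arrays, 30 of the 53 probes (56.6%) were well above background in all 4 pools, against 50.6% of all probes, and 7 (13.2%) in none, against 28.4%. By gene, 27 had a probe above background in all 4 pools, 11 in 1 to 3 pools, and 5 in none. The 5 were Apoc4, Apom, F5, F7 and Ttr. A probe was tested when it was above background in both pools of at least 1 genotype, which left 31 of the 43 genes. A gene can pass that filter through 1 genotype alone, so the counts below concern tested genes and not the whole list.

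The sorted cells carried the markers of TECs. All 12 TEC markers were above background in all 4 pools, among them Epcam, Foxn1 and Psmb11. Meis1 itself had a tested probe that read -0.44 and -2.08 in Meis1-CKO 1 and 2, against -0.12 and -0.91 in control 1 and 2 (log2 difference -0.75, SE 0.69, limma Benjamini-Hochberg adjusted p = 1.00). Another Meis1 probe exceeded background in the controls alone and was at least 1.46-fold lower in Meis1-CKO, and the floxed exons are not given in the sources used here, so neither probe checks the labels. Meis1-CKO 2 stood apart, with correlations over features of 0.857 to 0.885 with the other arrays, which correlated at 0.936 or more among themselves. Pool 1 of each genotype was on 1 slide (slide 1) and pool 2 of each on another (slide 2). For a summed level, each marker's level was turned back from log2 to a linear value before adding, so probes with strong signals weigh most. The summed level of 12 TEC markers was 484 and 218 in Meis1-CKO 1 and 2, against 545 and 462 in control 1 and 2. Ccl25 weighed much in it, with log2 levels of 7.69 and 5.91 in the Meis1-CKO pools, against 7.60 and 7.51 in the controls. The sum over 8 pan-leukocyte markers was 26.0 and 139 in the Meis1-CKO pools, against 29.1 and 35.1 in the controls, and 7 tested dendritic cell markers summed to 8.66 and 42.3, against 7.47 and 10.0. Thymocyte and T cell markers, 14 of 16 tested, summed to 6.56 and 45.6, against 52.2 and 19.8. Without Dntt, left out after values were seen because it carried most of the control 1 sum, the other 13 summed to 3.25 and 34.4 in Meis1-CKO 1 and 2, against 17.2 and 8.50 in control 1 and 2, and 12 of the 14 read higher in Meis1-CKO 2 than in control 2. Pan-leukocyte and dendritic cell sums, and the thymocyte sum without Dntt, were thus highest in Meis1-CKO 2, while Dntt was highest in control 1. The part of such cells in the results below was not tested.

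No liver plasma protein gene passed the test between Meis1-CKO and control TECs. Across 16773 features, limma with Benjamini-Hochberg adjustment called 0 higher (0%) and 0 lower (0%), and unadjusted p was under 0.05 for 227 higher (1.35%) and 239 lower (1.42%) features. Among the 31 tested liver genes, 1 had an unadjusted p under 0.05, the prothrombin gene F2. Log2 differences of the 31 lay between -1.41 and 0.66, with standard errors of 0.42 to 1.01, and each adjusted p was 1.00. Their median difference was -0.28, against -0.05 over all features. Of the 31, 8 were positive and 23 negative, where 7606 of the 16773 features were positive and 9167 negative.

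The 2 slides did not show the same picture. On slide 1 the median difference of the 31 genes was 0.18, and 19 read higher in Meis1-CKO 1 than in control 1, where 50.1% of all features did. On slide 2 the median was -0.94, and 2 read higher in Meis1-CKO 2 than in control 2, where 43.7% of all features did. Without Meis1-CKO 2 the median difference was 0.21 and 13 were negative, and without Meis1-CKO 1 it was -1.01 and 28 were negative. The sign of the overall median therefore turned with the pool left out.

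A common pattern was a higher value on slide 1 and a lower one on slide 2, in 19 of the 31 genes (61.3%) against 29.7% of all features. A further 10 genes (32.3%) read lower on both slides, against 26.5%, and 2, Apoe and Trf, read lower on slide 1 and higher on slide 2, against 23.3%. None (0%) read higher on both slides, against 20.4%. On slide 2, 15 of 31 genes were at least 2-fold lower in Meis1-CKO 2, against 17.1% of all features, and 0 were at least 2-fold higher, against 11.3%. On slide 1, 7 were at least 2-fold higher in Meis1-CKO 1, against 8.56%, namely Afp, Alb, Ambp, Cps1, Hpx, Itih3 and Kng1. F2 and Rbp4 were at least 2-fold lower on slide 1, against 5.88% of all features.

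**Figure D1:**
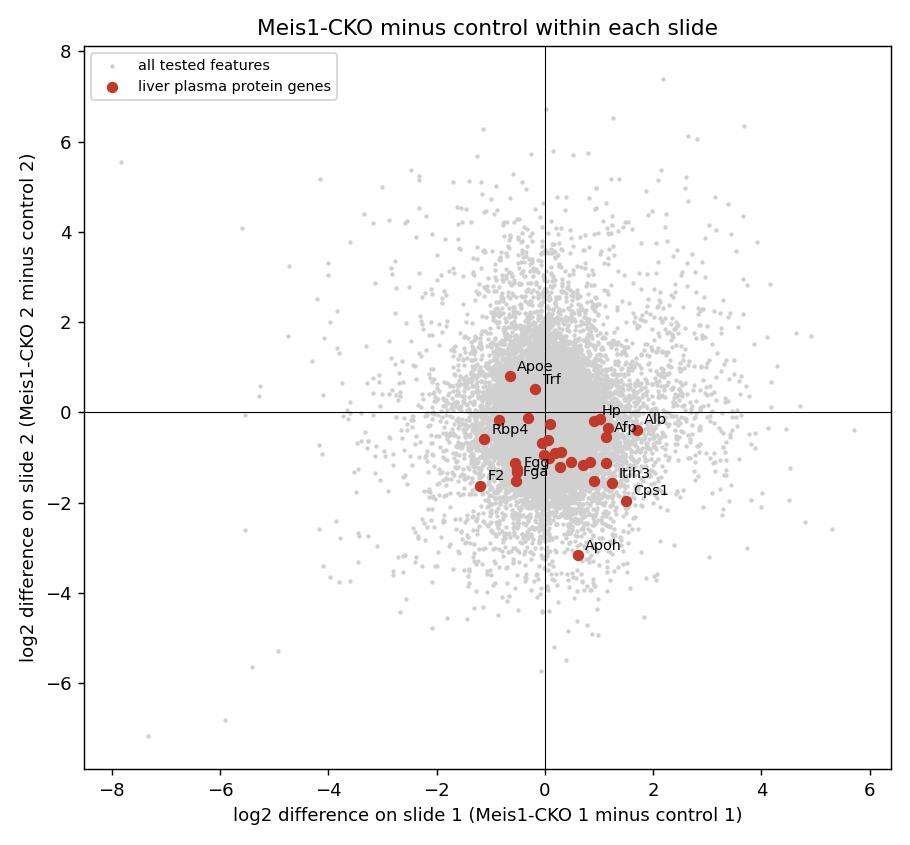
Log2 difference of Meis1-CKO minus control on slide 1 (x axis) and slide 2 (y axis), with grey points for all tested features and red points for the 31 tested liver plasma protein genes, some of them named. The red points lie mostly below 0 on slide 2 and on both sides of 0 on slide 1, and none lies above 0 on both.

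The pool that held the lowest value was Meis1-CKO 2 for 24 of the 31 genes (77.4%), against 36.9% of all features. The highest value was in Meis1-CKO 1 for 14 genes (45.2%), against 21.8% of all features, and in Meis1-CKO 2 for 0 genes, against 29.1%. The lowest values of the liver genes were thus mostly in one Meis1-CKO pool, and many of the highest in the other. Meis1-CKO 2 was also lowest for 10 of 12 TEC markers, 7 of 8 fibroblast and mesenchymal markers and 5 of 5 erythroid markers tested. It was lowest for 13 of 24 other secreted liver proteins tested. None of the 8 pan-leukocyte, 7 dendritic cell and 14 thymocyte and T cell markers tested was lowest in it. Low values in this pool were thus not particular to the liver genes.

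**Figure D2:**
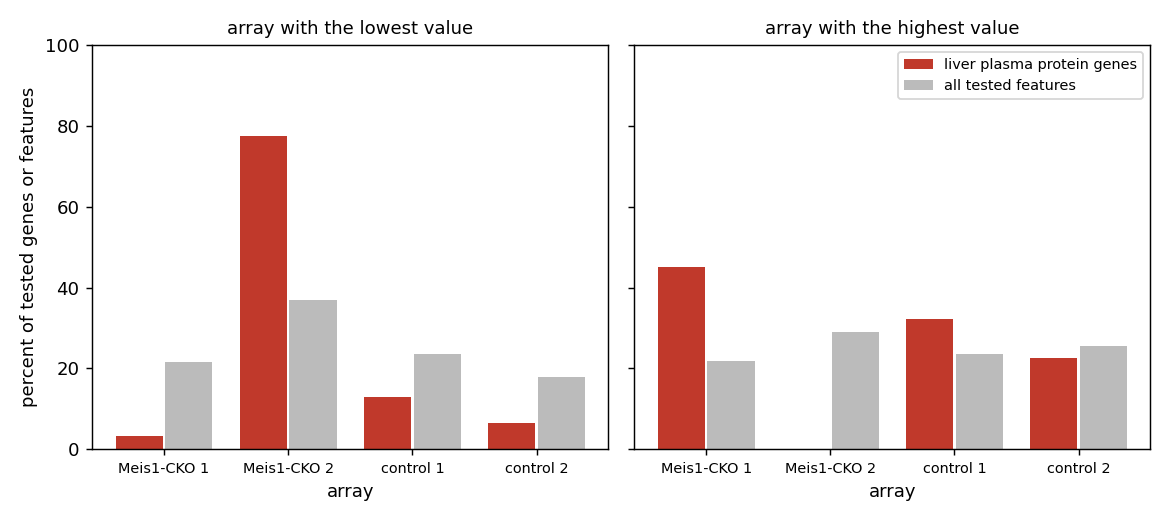
Percent of tested liver plasma protein genes (red) and of all tested features (grey) whose lowest value (left) or highest value (right) was on each of the 4 arrays. Meis1-CKO 2 held the lowest value for 77.4% of the liver genes and 36.9% of all features.

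Separation of the groups, with both Meis1-CKO pools below both controls, occurred for 6 of 31 genes (19.4%), against 14.4% of all features, and with both above for 0, against 11.1%. The 6 were Apcs, Crp, F2, Fga, Fgg and Hamp. Of these, F2 and Fga also differed by at least 2-fold (6.45%), where 3.93% of all features did so in that direction and 3.34% in the other.

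Of 12 regulators of tissue-restricted antigens 11 were tested, with a median log2 difference of -0.07, and none passed the test. On slide 1, 9 read higher in Meis1-CKO, and on slide 2, 7 read lower. Meis1-CKO 2 was the lowest pool for 5 of the 11. Both Meis1-CKO pools read above both controls for Irf8 (0.97) and Chd4 (0.21), where 11.1% of all features did. They read below both controls for Deaf1 (-0.90), where 14.4% of all features did. Irf8 read 2.25 and 3.41 in Meis1-CKO 1 and 2, against 1.82 and 1.89 in control 1 and 2. It was thus highest in the pool with the highest pan-leukocyte and dendritic cell sums, and the part of such cells in it was not tested. Aire read 3.03 and 2.37 in Meis1-CKO 1 and 2, against 2.50 and 4.59 in control 1 and 2, or 0.53 on slide 1 and -2.22 on slide 2. Fezf2 read 2.85 and 1.05, against 2.80 and 2.68. Aire and Fezf2 are among the 5 that were lowest in Meis1-CKO 2, the groups overlapped for both, and the regulators' part in the values of the liver genes was not tested.

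**Figure D3:**
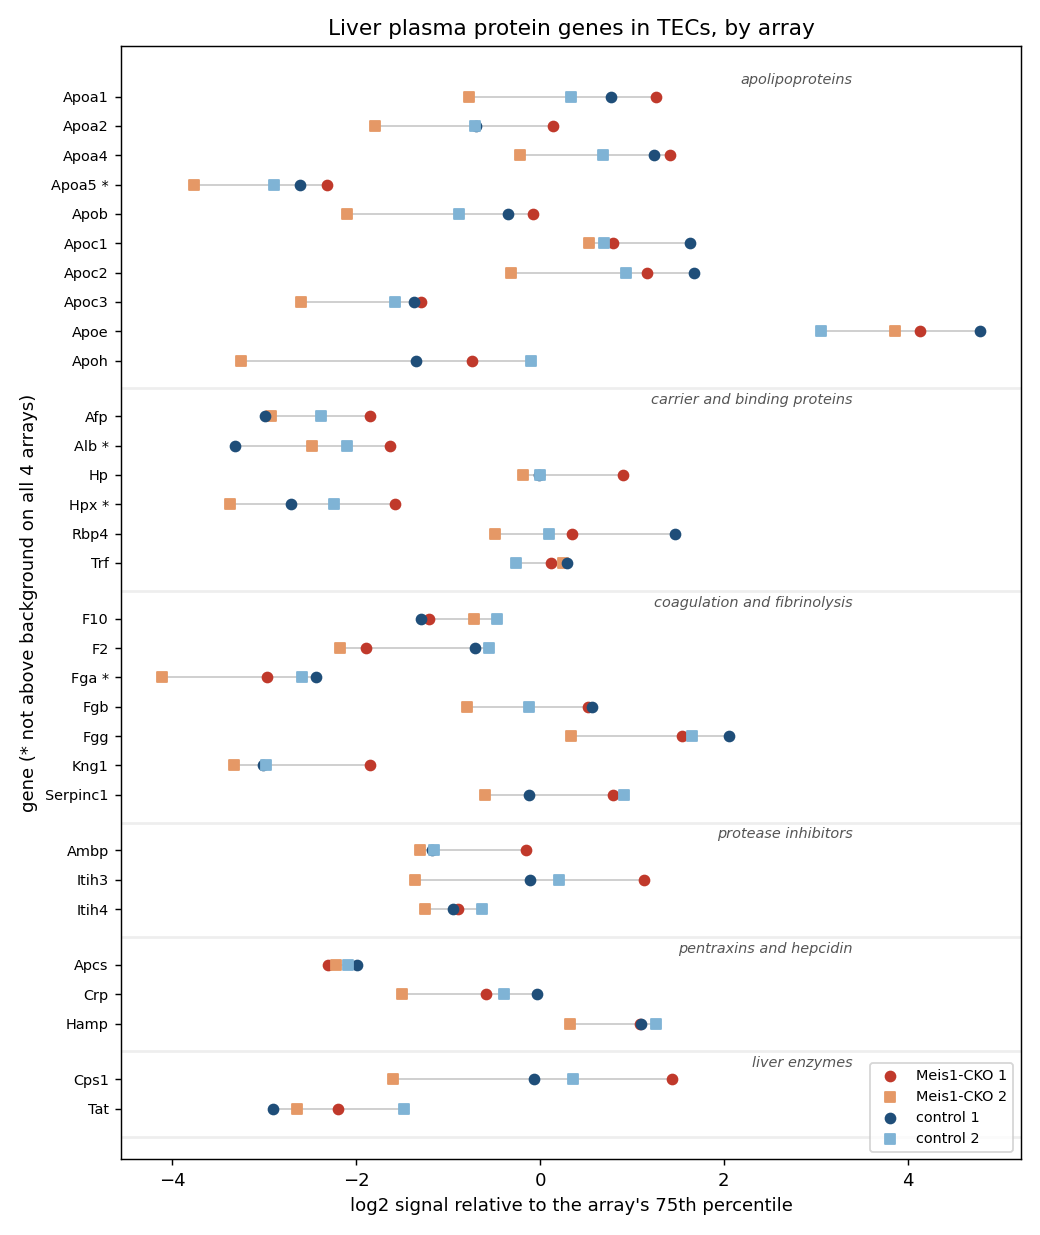
Log2 signal relative to the array's 75th percentile for the 31 tested liver plasma protein genes, by role, in Meis1-CKO 1 and 2 (red and orange) and control 1 and 2 (dark and light blue). Orange squares, Meis1-CKO 2, mark the lowest value in 24 of the rows, and a star marks a gene not above background in all 4 pools.

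Apolipoproteins, which build and steer lipoprotein particles, had 10 of 12 genes tested. Their median log2 difference was -0.42, 9 of the 10 were negative, and none passed the test. Apoa1, the main structural protein of high-density lipoprotein, read 1.26 and -0.77 in Meis1-CKO 1 and 2, against 0.77 and 0.33 in control 1 and 2 (difference -0.31, SE 0.75). Apoa2, another high-density lipoprotein component, read 0.14 and -1.79, against -0.70 and -0.70 (-0.12, SE 0.72). In both genes the Meis1-CKO pools lay on either side of the controls. Apoa4, made mainly by the intestine in adults, read 1.42 and -0.22 in the Meis1-CKO pools, against 1.24 and 0.69 in the controls (-0.36, SE 0.67). Apoa5, which promotes triglyceride clearance, read -2.32 and -3.76, against -2.62 and -2.89, with the lowest value not above background. Apoa4 and Apoa5 thus had the same order of pools as Apoa1, with Meis1-CKO 1 highest and Meis1-CKO 2 lowest.

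The C apolipoproteins regulate lipases and particle uptake. Apoc3, an inhibitor of triglyceride clearance, read -1.29 and -2.60 in Meis1-CKO 1 and 2, against -1.38 and -1.58 in control 1 and 2 (-0.47, SE 0.58). A second Apoc3 probe, sharing most of its bases with the first, differed by -0.29 and had the same order of pools. Apoc2, the activator of lipoprotein lipase, read 1.17 and -0.32 in the Meis1-CKO pools, against 1.68 and 0.94 in the controls (-0.88, SE 0.65). Apoc1, an inhibitor of lipid transfer, read 0.79 and 0.53, against 1.63 and 0.70 (-0.50, SE 0.51). Apoc1 and Apoc2 were lower on both slides, yet their groups overlapped.

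Apoe, a ligand of lipoprotein receptors that macrophages also make, read 4.14 and 3.86 in Meis1-CKO 1 and 2, against 4.78 and 3.06 in control 1 and 2 (0.08, SE 0.67). Its Meis1-CKO pools lay between the controls, and under quantile normalization the difference was -0.0031. The summed level of 14 tested macrophage markers was 44.8 and 37.2 in the Meis1-CKO pools, against 32.0 and 45.0 in the controls. Their median level, on which bright markers such as Lyz2 weigh less, was -0.70 and 0.29, against -0.54 and -0.93. On slide 2, 7 of the 14 read higher in Meis1-CKO 2 than in control 2 and 7 read lower. By at least 2-fold, 6 were higher there and 2 lower. The part of such cells was not tested. Apoh, beta-2-glycoprotein I, read -0.74 and -3.25 in the Meis1-CKO pools, against -1.35 and -0.09 in the controls (-1.28, SE 0.94). That difference was -0.02 without Meis1-CKO 2 and -2.53 without Meis1-CKO 1, so 1 pool set its size.

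Apob, the structural protein of chylomicrons and very-low-density lipoprotein, was read by probe 4, whose levels were -0.07 and -2.10 in Meis1-CKO 1 and 2, against -0.35 and -0.88 in control 1 and 2 (-0.47, SE 0.76). The differences over probes 1 to 5 were -0.91, 0.14, -0.14, -0.47 and -0.90. Probe 1 read -1.38 and -5.65 in the Meis1-CKO pools, against -2.63 and -2.57 in the controls, and the low value was not above background. Probe 5 read 0.28 and -2.99, against -0.41 and -0.49. Probe 3 was above background in Meis1-CKO 1 alone and was not tested, so the order of its other pools is that of dim signals. The 4 tested probes were highest in Meis1-CKO 1 and lowest in Meis1-CKO 2, whatever the sign of their mean difference, and the 2 probes at the 3′ end lie next to each other.

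**Figure D4:**
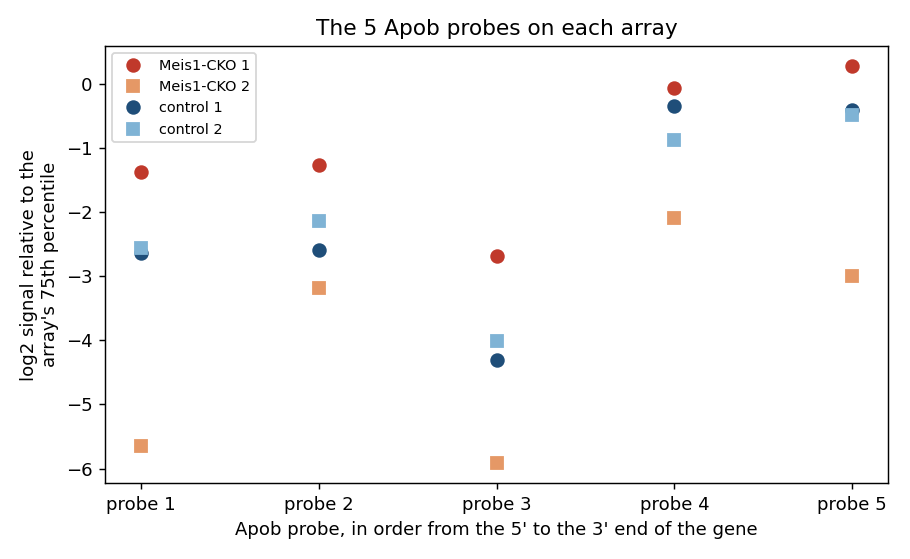
Log2 signal relative to the array's 75th percentile at the 5 Apob probes, ordered from the 5′ to the 3′ end of the gene, with a point for each array. At the 4 tested probes Meis1-CKO 1 is the highest point and Meis1-CKO 2 the lowest, probe 3 is above background in Meis1-CKO 1 alone, and levels of different probes are not comparable.

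Carrier and binding proteins had 6 of 9 genes tested, with a median log2 difference of 0.23 and 5 of 6 positive, none passing the test. Alb, the main plasma protein, read -1.63 and -2.48 in Meis1-CKO 1 and 2, against -3.32 and -2.10 in control 1 and 2 (0.66, SE 0.61), with control 1 not above background and a difference of 0.07 under normexp background correction. Afp, its fetal counterpart, read -1.85 and -2.93, against -2.99 and -2.39 (0.29, SE 0.56). Alb and Afp had their highest value in Meis1-CKO 1 and their lowest in control 1, and the groups overlapped. Hp, which binds free haemoglobin, read 0.90 and -0.18 in the Meis1-CKO pools, against -0.01 and -0.0030 in the controls (0.37, SE 0.53). Hpx, the haem carrier, read -1.58 and -3.37, against -2.71 and -2.25, with 1 Meis1-CKO pool not above background. For both haem-related genes the Meis1-CKO pools lay on either side of the controls.

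Rbp4, the plasma carrier of retinol, read 0.35 and -0.49 in Meis1-CKO 1 and 2, against 1.47 and 0.10 in control 1 and 2 (-0.86, SE 0.64). It was lower on both slides, but its groups overlapped. Trf, transferrin, the iron carrier, read 0.12 and 0.25 in the Meis1-CKO pools, against 0.30 and -0.26 in the controls (0.17, SE 0.46). Its 4 values were close together. Ahsg and Serpina6 were not tested, and Ttr, the thyroxine carrier transthyretin, was above background in no pool.

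Coagulation and fibrinolysis genes had 7 of 12 members tested, with a median of -0.36 and 6 of 7 negative. F2, the precursor of thrombin, had unscaled signals of 29.2 and 33.7 in Meis1-CKO 1 and 2, against 57.1 and 93.2 in control 1 and 2. Its levels were -1.90 and -2.18 in the Meis1-CKO pools, against -0.71 and -0.55 in the controls. The groups did not overlap, and F2 was at least 2-fold lower on both slides, by -1.19 on slide 1 and -1.62 on slide 2. Of all features, 5.88% were at least 2-fold lower on slide 1 and 17.1% on slide 2. The share on both slides was not counted. Its log2 difference was -1.41 (SE 0.43, n = 2 pools each, limma unadjusted p = 0.0195, Benjamini-Hochberg adjusted p = 1.00). With normexp background correction it was -0.64, and leaving out each pool in turn gave -1.55 to -1.27. The probe lies at chr2:91465585-91465644 on the minus strand of mm9, and the gene's promoter window is printed above.

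The fibrinogen chains are encoded side by side within 27.6 kb. Fgg, the gamma chain, read 1.54 and 0.34 in Meis1-CKO 1 and 2, against 2.06 and 1.66 in control 1 and 2 (-0.92, SE 0.57). Fga, the alpha chain, read -2.97 and -4.11, against -2.44 and -2.59 (-1.03, SE 0.55), with 1 Meis1-CKO pool not above background and a difference of -0.26 under normexp background correction. Fgb, the beta chain, read 0.52 and -0.79, against 0.57 and -0.12 (-0.36, SE 0.61). The 3 chains read lower on both slides, without overlap for Fgg and Fga and with overlap for Fgb, and none passed the test.

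Serpinc1, antithrombin, read 0.79 and -0.59 in Meis1-CKO 1 and 2, against -0.12 and 0.92 in control 1 and 2 (-0.30, SE 0.67). Its other probe differed by -0.05, also higher on slide 1 and lower on slide 2. Kng1, kininogen, read -1.85 and -3.33 in the Meis1-CKO pools, against -3.01 and -2.98 in the controls (0.41, SE 0.61), and its dim second probe differed by -0.37. F10, which activates prothrombin, read -1.21 and -0.72, against -1.30 and -0.47 (-0.08, SE 0.51). F10 followed the slides, with pool 2 above pool 1 in either genotype.

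Protease inhibitors had 3 of 6 genes tested, with a median of -0.17 and 1 of 3 positive. Itih3, a heavy chain of the inter-alpha-inhibitor that binds hyaluronan, read 1.13 and -1.36 in Meis1-CKO 1 and 2, against -0.11 and 0.21 in control 1 and 2 (-0.17, SE 0.86). Itih4 read -0.89 and -1.25, against -0.95 and -0.63 (-0.28, SE 0.45). Ambp, the precursor of the light chain bikunin, read -0.15 and -1.30, against -1.18 and -1.16 (0.44, SE 0.54). For Itih3 and Ambp the Meis1-CKO pools lay on either side of the controls, and for Itih4 the groups overlapped within a narrow range.

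Pentraxins and hepcidin had all 3 genes tested, and the 3 differences were negative with a median of -0.47. Crp, C-reactive protein, read -0.59 and -1.51 in Meis1-CKO 1 and 2, against -0.04 and -0.39 in control 1 and 2 (-0.84, SE 0.51). Apcs, serum amyloid P component, read -2.31 and -2.22, against -1.997 and -2.09 (-0.22, SE 0.42). Hamp, hepcidin, which restrains iron export, read 1.09 and 0.32, against 1.10 and 1.26 (-0.47, SE 0.48). The groups did not overlap for any of the 3, though Meis1-CKO 1 and control 1 were nearly equal for Hamp, and none passed the test. Of the liver enzymes, Cps1, the mitochondrial entry enzyme of the urea cycle, read 1.44 and -1.60 in the Meis1-CKO pools, against -0.06 and 0.36 in the controls (-0.23, SE 1.01). Tat, which degrades tyrosine, read -2.20 and -2.64, against -2.91 and -1.48 (-0.23, SE 0.62). Cps1 had its extremes in the 2 Meis1-CKO pools and Tat in the 2 controls.

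Probes of 24 of the 43 genes lay within 1 Mb of another one, in 9 groups on mm9, while the 43 genes spread over 16 chromosomes. The 4 genes from Apoa1 to Apoa5 lie within 41.2 kb of chromosome 9, and all 4 read higher on slide 1 and lower on slide 2. The 3 tested genes of the Apoe group, within 24.8 kb of chromosome 7, read lower on slide 1, and Apoc1 and Apoc2 but not Apoe also on slide 2. Alb and Afp lie within 36.2 kb of chromosome 5 and both read higher on slide 1 and lower on slide 2. Crp and Apcs, whose probes span 196 kb of chromosome 1, both read lower on each slide. These are descriptions of neighbours on the same arrays, with no test.

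**Figure D5:**
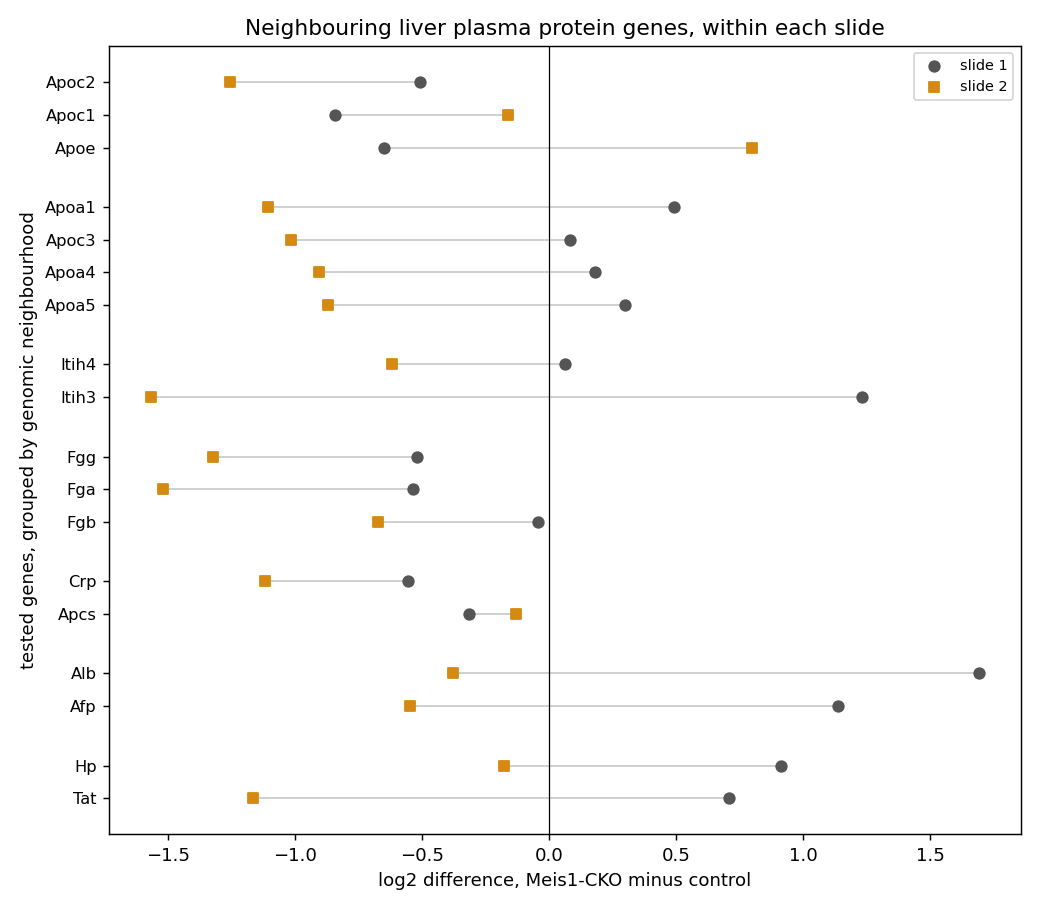
Log2 difference of Meis1-CKO minus control on slide 1 (circles) and slide 2 (squares) for tested liver plasma protein genes whose probes lie within 1 Mb of another's, grouped by neighbourhood. The 4 genes of the Apoa1 group lie right of 0 on slide 1 and left of 0 on slide 2, and the 3 fibrinogen genes lie left of 0 on both.

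The factors that drive these genes in liver and the other parts of lipoprotein and hepatocyte metabolism were read from lists of their own. Of 20 hepatocyte transcription factors 10 were tested, with a median log2 difference of -0.39, and none passed the test in either direction. Hnf4a, a nuclear receptor, read -0.09 and -0.54 in Meis1-CKO 1 and 2, against 0.43 and 0.26 in control 1 and 2 (-0.66, SE 0.45). Both of its Meis1-CKO pools read below both controls. Foxa1 differed by -1.49 (SE 0.88) and Hnf4g by -0.62 (SE 0.53), each above background in both controls and in 1 Meis1-CKO pool.

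Among 20 lipoprotein receptors, transporters and lipases 16 were tested, with a median of -0.19, and none passed the test. Scarb1, the high-density lipoprotein receptor, differed by 0.88 (SE 0.43), the receptor Lrp8 by 0.80 (SE 0.43) and the cholesterol exporter Abca1 by 0.86 (SE 0.47). For these 3 both Meis1-CKO pools read above both controls.

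Of 43 other secreted liver proteins 24 were tested, with a median of -0.06 and none passing. Serpina3n differed by 2.10 (SE 1.01) and Proc, protein C, by 1.06 (SE 0.52), each above background in 1 control only. Cfi, complement factor I, differed by -1.32 (SE 0.72) and Igfals by -0.93 (SE 0.53). Of 20 hepatocyte enzymes and transporters 14 were tested, with a median of -0.55 and none passing. Fbp1, a gluconeogenic enzyme, differed by -0.70 (SE 0.48) and Ass1 of the urea cycle by 1.66 (SE 1.42). Ass1 was lower on slide 1 (-1.12) and higher on slide 2 (4.44), so Meis1-CKO 2 set its sign. The asialoglycoprotein receptor subunits Asgr1 and Asgr2 differed by -0.52 (SE 0.42) and 0.99 (SE 0.76). Asgr2 differed by 0.24 on slide 1 and 1.73 on slide 2. Mean differences of the 2 receptor subunits thus had opposite signs, but the groups overlapped for Asgr2, as for Ass1.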

How the data were processed

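Each pool was hybridised to 1 Agilent single-colour array, from cDNA amplified from 10 ng of RNA per the labels' protocols. The deposited scanner files hold linear spot intensity values, which Agilent Feature Extraction 9.5.3.1 had background-subtracted and spatially detrended, per the file headers. The deposited value table holds log2 values, which differ between arrays as the log2 signals do and are centred on each probe's median. Its column medians were -0.06 and -0.12 for Meis1-CKO 1 and 2 and 0.04 and 0.09 for control 1 and 2. It served as an alternative.

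From the scanner intensity, the log2 signal minus each array's 75th percentile was computed. Of 45018 spots, 1639 control spots and 63 to 78 outlier spots per array were left out, and no spot was saturated. Between 58.6% and 63.6% of spots were well above background. The tested probe with the highest mean stood for its gene, leaving 24266 probes and 16773 features. Symbols were updated from RefSeq by accession for 26690 probes and by an older symbol for 952, 5189 matched as they stood and 8343 had none. Groups were compared with limma 3.58.1 in R 4.3.3, with Benjamini-Hochberg adjustment at 0.05, 2 residual degrees of freedom and 5.52 in all, and precision is limited by the number of arrays. For a gene dim in 1 genotype the fold is a lower bound, taken against the array's detection floor or the dim signal, whichever was higher. The test was checked on simulated data, where it recovered only very large changes. The simulated sizes had been raised after smaller ones were not recovered at spreads drawn from limma's prior.

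Values in every array are given for genes above background in all 4 pools, and up to 4 genes by smallest p from each other list, of which 2 genes' results are not reported here. Alb, Apoa5, Fga and Hpx were added after their values were seen, as were the 1 Mb window and the count of negative differences. The genes and lists were chosen with earlier results of these data known. Same-numbered arrays deviated from the group means with a correlation of 0.13, and the labels tie no number to a day or litter, so the replicate block is an alternative.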

Additional observations from a re-analysis of the deposited data

How the results depend on the processing

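Quantile normalization, normexp background correction (offset 50), the value table, no filter on dim probes, a filter above background on all 4 arrays, the mean of a gene's tested probes and the replicate block each called 0 features and 0 liver plasma protein genes. The median difference of the liver genes lay between -0.30 and -0.16 over these 7 settings, and 21 to 29 differences were negative. With the replicate block 0 features passed, 660 had an unadjusted p under 0.05, against 466 without it, and no call changed. The count of separated liver genes at least 2-fold apart, 2 and both lower, was 1 with quantile normalization, 0 with normexp correction and 1 with the filter on all 4 arrays, which removes Fga. Of the 31 single genes, Apoe turned sign to -0.0031 with quantile normalization and Hpx to -0.0020 with the value table, and no other did. Alb, Apoa5, Fga and Hpx, whose alternatives were added after seeing the data, had no value under the filter on all 4 arrays.

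Leaving out each array in turn moved more, and the arm left with 1 array was then assumed to vary like the other. Without Meis1-CKO 1, 312 features passed, 196 higher and 116 lower, against 0 without any other array, and 0 liver genes passed in any case. The separated and 2-fold count ranged from 2 to 16, with 0 to 5 higher and 1 to 16 lower, and the number of negative differences from 13 to 28. Separation is easier to meet when 1 arm holds 1 array, and the share over all features was not counted in these settings. A rise in the separated count is therefore not a result about the liver genes. The median ran from -1.01 to 0.21. Signs turned within these ranges: Afp -0.25 to 0.83, Ambp -0.13 to 1.01, Apoa1 -1.32 to 0.71, Apoa2 -1.09 to 0.84, Apoa4 -1.18 to 0.45, Apoa5 -1.01 to 0.44, Apob -1.48 to 0.54, Apoc3 -1.12 to 0.18, Apoe -0.79 to 0.94, Cps1 -1.75 to 1.29, F10 -0.49 to 0.33, Fgb -1.02 to 0.30, Hp -0.17 to 0.91, Hpx -0.89 to 0.89, Itih3 -1.41 to 1.08, Kng1 -0.33 to 1.15, Serpinc1 -0.99 to 0.39, Tat -0.94 to 0.49 and Trf -0.11 to 0.45. The cause was not tested.

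With 2 pools a genotype, differences of dim genes rest on signals near background, where F2 gave -0.64, Fga -0.26 and Alb 0.07 with normexp background correction, and -1.41, -1.03 and 0.66 with the processed signal.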

Other observations

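Liver plasma protein genes too dim to be tested gave single readings above background in scattered pools. Plg, the plasmin precursor, had 2 neighbouring probes that did not read alike. The first read -3.85 and -2.21 in Meis1-CKO 1 and 2, against -3.81 and -3.00 in control 1 and 2, and the second -3.18 and -5.57, against -5.35 and -2.84. Each was above background in 1 pool of either genotype. Ahsg, fetuin-A, read -5.88 and -2.97 in the Meis1-CKO pools, against -4.86 and -5.45 in the controls, and was above background in Meis1-CKO 2 alone. Serpind1, heparin cofactor II, read -4.34 and -2.30, against -4.66 and -3.88, and was also above background in 1 Meis1-CKO pool only. These 2 genes were highest in the pool that was lowest for most tested liver genes. Itih2, also untested, went the other way, at -2.35 and -5.69 in Meis1-CKO 1 and 2, against -3.90 and -2.63 in control 1 and 2. The second Plg probe was lowest in Meis1-CKO 2 as well, so the dim genes shared no order of pools. Itih1 was above background in 1 control pool and read -4.63 and -5.11 in the Meis1-CKO pools, against -2.39 and -3.67 in the controls.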
